A study of Arabidopsis thaliana with 2 samples.

Results

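From 16018 genes with a value for the 5' untranslated region (5' UTR), 10 were chosen. Over their 5' UTRs, ribosome-protected reads were at least as frequent as mRNA reads for the size of each library. The genes were chosen on these same values: a 5' UTR level of at least 1 RPM (reads scaled to a library of 1000000) in ribosome profiling (ribo-seq) that was not below the mRNA sequencing (mRNA-seq) level, each gene being taken as its isoform with the highest exon mean. The first ids of chromosome 1, AT1G01010 to AT1G01400, were left out because reads of plastid origin are suspected there. This left 15983 genes, of which the 10 are 0.0626%. Of the 912 genes with at least 1 RPM in ribo-seq they are 1.1%. The 5' UTR values and their ratio are therefore given below as a description of what was chosen and bear on nothing else.

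Both libraries came from membrane-bound polysomes (MBPs), that is, mRNAs with ribosomes that sediment with the microsomes, of wild-type (WT) Arabidopsis thaliana seedlings at 13 days of age. One library was MBP ribo-seq, made from the short RNA fragments that ribosomes shielded from RNase I, and the other was MBP mRNA-seq, made from the RNA of that fraction. There was 1 library per assay and no replicate, so each ratio below describes these libraries, carries no p-value and has no replicate check. The 95% intervals cover counting error only. The depth recovered from the values was 38438721 reads in ribo-seq and 66958234 reads in mRNA-seq, so that 1 read was worth 0.0260 RPM by ribo-seq and 0.0149 RPM by mRNA-seq. Whole seedlings were labelled as the source, and the leaf photosynthesis genes RBCS1A (exons, 9535 RPM by ribo-seq and 13066 RPM by mRNA-seq) and CA1 (5248 RPM by ribo-seq and 5526 RPM by mRNA-seq) were high in both libraries.

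In eukaryotic translation the small ribosomal subunit binds near the cap and scans the 5' UTR for a start codon. Short upstream open reading frames (uORFs) within the 5' UTR can capture ribosomes before the main coding sequence is reached, and in plants several uORFs with conserved peptides hold back translation in response to sucrose, polyamines or ascorbate. Footprints in a 5' UTR are therefore often read as uORF translation. Ribosome profiling sequences every RNA fragment of footprint size that travels with the monosome peak, and fragments of structured RNAs such as tRNAs and spliceosomal snRNAs are a known component of such libraries.

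**Figure D1:**
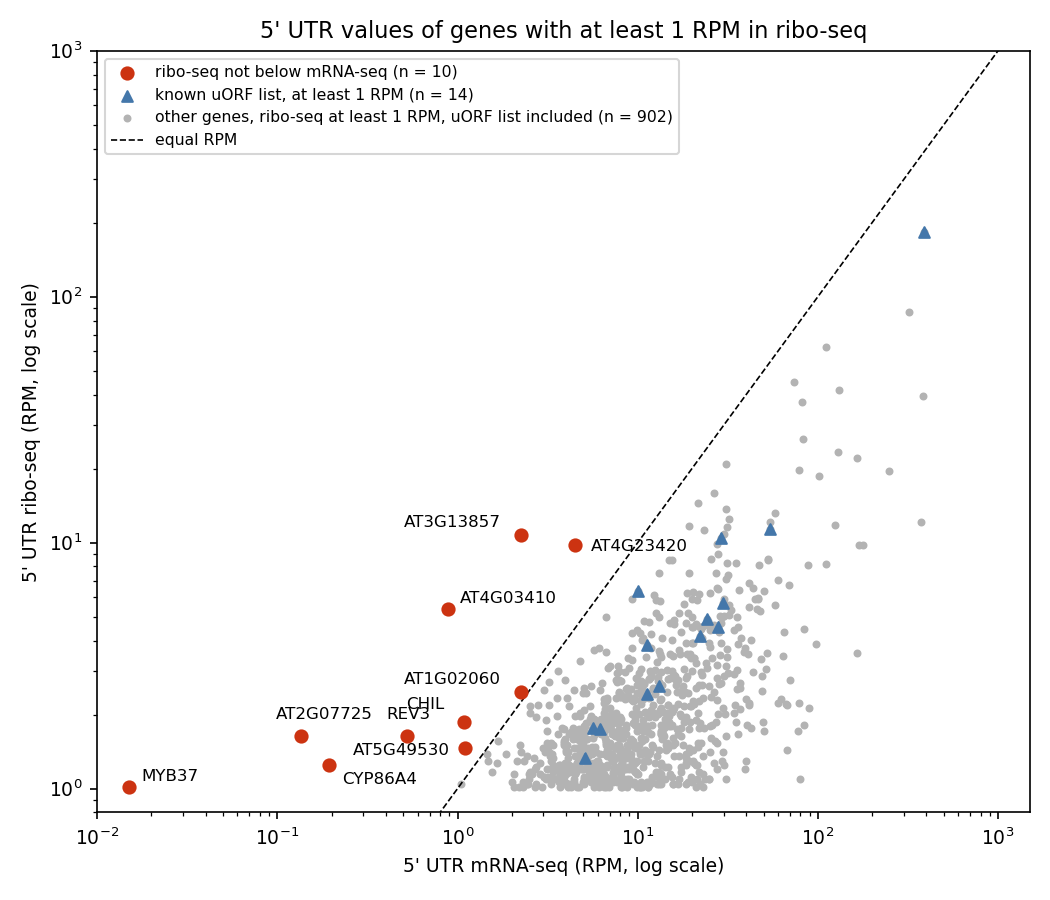
The 5' UTR level in ribo-seq (vertical axis, RPM, log scale) is plotted against that in mRNA-seq (horizontal axis, RPM, log scale) for every gene with at least 1 RPM in ribo-seq. The 10 genes (red) lie on or to the left of the dashed line of equal RPM by the rule that chose them, and the 14 genes of the known uORF list at this level (blue triangles) lie to its right among the 902 other genes (grey).

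In the plot of 5' UTR levels, the 10 genes did not stand out by their ribo-seq level. Its median was 1.76 RPM in the 10 genes and 1.74 RPM in the 902 other genes with at least 1 RPM. They stood out by a low mRNA-seq level, with a median of 0.986 RPM in the 10 genes against 10.1 RPM in the 902 genes. On the log2(RPM + 0.5) scale the 5' UTR ratio of ribo-seq over mRNA-seq had a median of 1.20 in the 10 genes (0.12 to 2.09), against -2.07 in the 902 genes and -0.99 in all 15983 genes. The rule itself separates these medians.

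The 3 highest genes shared an annotated feature that was not part of the rule. Each has a gene for a small structured RNA that overlaps its 5' UTR on the same strand. They held 996 of the 1432 ribo-seq reads (69.6%) in the 5' UTRs of the 10 genes. Elsewhere an overlap with such a gene was rare, counted on either strand and from 1 base upward. A tRNA, snRNA or snoRNA gene overlapped the 5' UTR in 3 of the 10 genes. This held for 1 of 887 other genes with at least 1 RPM and a reference 5' UTR (0.113%), and for 15 of all 15881 genes with a reference 5' UTR (0.0945%).

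AT3G13857, an uncharacterized gene (chromosome 3, 4561107 to 4561345, plus strand), had the highest level. Its 64-base 5' UTR had 10.7 RPM in ribo-seq (412 reads) and 2.24 RPM in mRNA-seq (150 reads), a ratio of 4.78 (95% interval 3.96 to 5.81). The gene for U6-26, a U6 spliceosomal snRNA, lies at bases 4561112 to 4561212 of the same strand and covers 59 bases of the 5' UTR and 42 bases of the coding sequence. The annotated start codon of AT3G13857 thus lies inside the U6-26 gene. The first 30 coding bases are shown because all of them belong to both genes, with the start codon in capitals.
AT3G13857 chr3:4561171-4561200 (+): ATGacacgcataaatcgagaaatggtccaa
The exons, taken here as coding sequence, held 0.286 RPM in ribo-seq (11 reads) and 0.568 RPM in mRNA-seq (38 reads) over 129 coding bases. Per 100 bases, ribo-seq had 644 reads in the 5' UTR and 8.53 reads in the exons, while mRNA-seq had 234 reads in the 5' UTR and 29.5 reads in the exons. The 5' UTR thus held most reads of this gene in both assays.

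AT4G23420, which encodes a protein with an NAD(P)-binding Rossmann fold (chromosome 4, 12225515 to 12228718, plus strand), was the second. Its 5' UTR had 9.81 RPM in ribo-seq (377 reads) and 4.47 RPM in mRNA-seq (299 reads), a ratio of 2.20 (1.88 to 2.57). The gene for U1.2, a U1 spliceosomal snRNA of 165 bases (12225622 to 12225786), lies wholly in this 5' UTR, at 16 to 180 bases from the transcript start. The 3 isoforms start at different places, yet all 3 had the same 377 ribo-seq reads, with 299, 292 and 294 mRNA-seq reads. The isoforms share 453 bases of 5' UTR (12225607 to 12226059), which include the U1.2 gene, and 228, 133 and 92 bases lie outside the shared stretch in isoforms 1, 2 and 3. In the exons the levels were 4.53 RPM in ribo-seq (174 reads) and 5.97 RPM in mRNA-seq (400 reads).

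AT4G03410, which encodes a peroxisomal membrane protein of the Mpv17/PMP22 family (chromosome 4, 1501168 to 1503699, plus strand), was the next. Its 739-base 5' UTR had 5.39 RPM in ribo-seq (207 reads) and 0.881 RPM in mRNA-seq (59 reads), a ratio of 6.11 (4.56 to 8.31). A tRNA gene for glutamine, AT4G03405 (72 bases, 1501607 to 1501678), lies wholly within it, at 440 to 511 bases from the transcript start. The minus-strand gene DFL2, which encodes a GH3-family enzyme of light-dependent hypocotyl growth, spans a further 432 of its bases. Both isoforms of AT4G03410 have this 5' UTR and the same counts. The exons of the chosen isoform had 10.1 RPM in ribo-seq (390 reads) and 17.5 RPM in mRNA-seq (1171 reads).

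**Figure D2:**
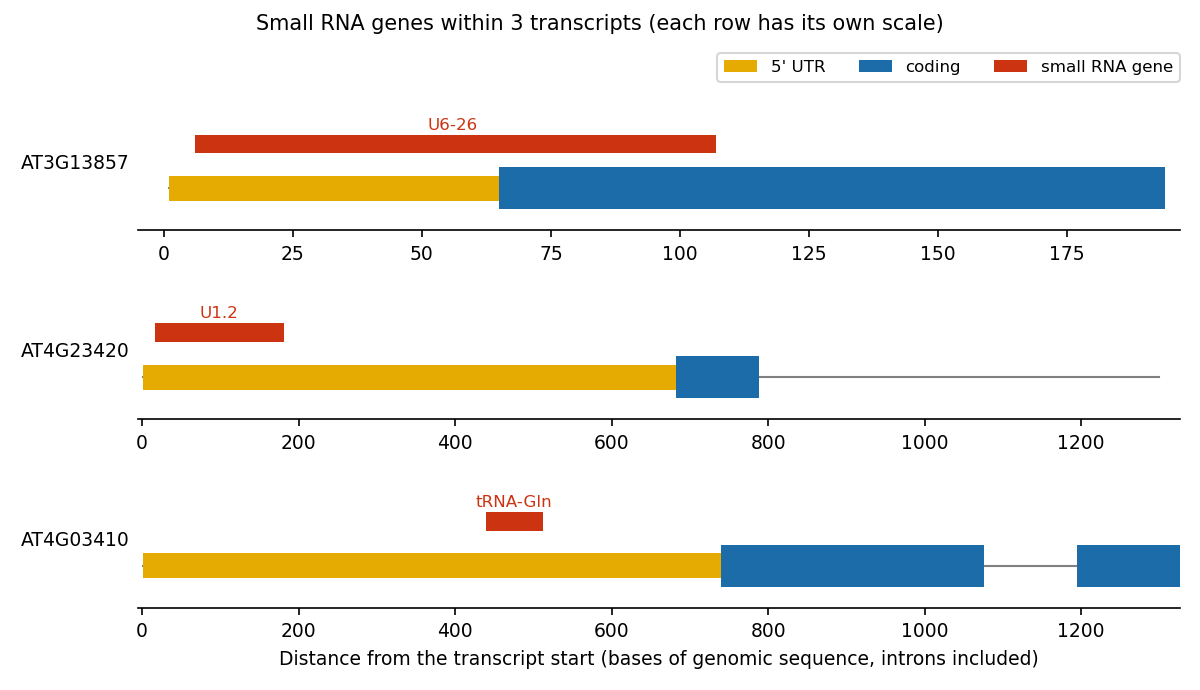
The 5' UTR (yellow), coding exons (blue) and overlapping small RNA gene (red) of AT3G13857, AT4G23420 and AT4G03410 are drawn against the distance from the transcript start in bases, introns included, each on its own scale and the lower 2 cropped. The U6-26 gene runs from base 6 to base 106 and crosses into the coding sequence, while the U1.2 gene (16 to 180) and the tRNA gene (440 to 511) lie within the 5' UTR.

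The deposited values give 1 number per feature of an isoform and do not show where in it the reads lay. For AT4G23420 the equal ribo-seq counts of its isoforms point to the shared 453 bases, of which the U1.2 gene is a part. Whether the reads of these 3 genes came from the small RNA genes drawn in the map of transcripts or from the surrounding mRNA was not tested. The study described polyA+ selection for its RNA-seq, that of MBP RNA included, and the ribo-seq protocol names none, so the assays may differ in how far they take up RNA without a tail. Of the 15 genes with a small RNA gene in the 5' UTR, 4 (26.7%) had at least 1 RPM in ribo-seq, against 912 of all 15983 genes (5.71%). The 3 genes described above are among the 4, so this share rests on the values that chose them and is a description. The rule was met by 3 of the 15, and another 3 were at 0 reads in ribo-seq. The 3 that met it were 2 of 6 genes over an snRNA gene, 1 of 4 over a tRNA gene and 0 of 5 over a snoRNA gene. Some overlaps were short, and among the genes over a tRNA gene AT1G11020 shared 1 base and emb1974 shared 17 bases.

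The other genes over small RNA genes were lower. AT2G35750, over a snoRNA gene, had 2.52 RPM by ribo-seq and 3.02 RPM by mRNA-seq and missed the rule by its ratio. AT3G51140, over another tRNA gene, had 0.806 RPM by ribo-seq and 8.59 RPM by mRNA-seq. AT5G63060, over the U6.2 gene, had 0.182 RPM by ribo-seq and 0.986 RPM by mRNA-seq, far below the level of AT3G13857 over another U6 gene. Reads of copies with the same sequence cannot be told apart. The study dropped reads with several map positions in its mRNA-seq in general. Whether this was done for these 2 libraries is not settled by the sources used here.

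A further gene carried a copy of organelle DNA. AT2G07725, annotated as a protein of the ribosomal L5P family (chromosome 2, 3447398 to 3449059, plus strand), lies where the nuclear genome holds mitochondrial sequence. Its whole 88-base 5' UTR and its whole 558-base coding sequence were found without a mismatch in the mitochondrial genome of the reference. The first 30 coding bases are shown as an example, with the start codon in capitals.
AT2G07725 chr2:3448402-3448431 (+): ATGtttccactcaattttcattacgaagat
Its 5' UTR had 1.64 RPM in ribo-seq (63 reads) and 0.134 RPM in mRNA-seq (9 reads), a ratio of 12.2 (6.03 to 27.9). In the exons it had 0.546 RPM in ribo-seq (21 reads) and 0.239 RPM in mRNA-seq (16 reads), a ratio of 2.29 (1.14 to 4.69). Nuclear and mitochondrial transcripts of this sequence cannot be told apart by their reads. A match of at least 24 bases to an organelle genome was found in 1 of the 10 genes, in 7 of 887 other genes with at least 1 RPM (0.789%) and in 50 of 15881 genes (0.315%).

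Another pair of genes lay in the first 367808 bases of chromosome 1, a stretch as long as the mitochondrial genome of the reference and one that holds the ids left out by the rule. Outside those ids the stretch held 2 of the 10 genes among 47 genes with a 5' UTR value, against 8 among 15936 genes elsewhere. Of the 35 left-out genes with a 5' UTR value, 6 would have met both values of the rule. In the 5' UTRs of this pair no match of at least 24 bases to an organelle genome was found, and their exons were not searched. Whether reads of organelle origin take part in the values of this pair was not tested.

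AT1G02060, a tetratricopeptide repeat-like gene (chromosome 1, 360918 to 363142, minus strand), had the largest exon values of the 10 genes. Its exons had 2620 RPM in ribo-seq (100704 reads) and 261.9 RPM in mRNA-seq (17536 reads), a ratio of 10.003. Its 92-base 5' UTR had only 2.47 RPM in ribo-seq (95 reads) and 2.24 RPM in mRNA-seq (150 reads), a ratio of 1.103 whose interval of 0.844 to 1.44 includes 1. The 5' UTR of AT1G02060 therefore met the rule within counting error of the limit, while its reads lay almost wholly in the exons. CYP86A4 (AT1G01600, chromosome 1, 218834 to 221286, plus strand), a cytochrome P450 of a family of fatty acid hydroxylases that make cutin monomers, was the other gene of this stretch. Its 366-base 5' UTR had 1.25 RPM in ribo-seq (48 reads) and 0.194 RPM in mRNA-seq (13 reads), a ratio of 6.43 (3.43 to 12.9). Its exons had 5.75 RPM by ribo-seq and 8.57 RPM by mRNA-seq, a ratio of 0.671, and so did not share the excess of AT1G02060.

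The remaining 4 genes had none of these overlaps in the 5' UTR apart from a single base in CHIL that is coding in its other isoform. They held 230 of the 1432 ribo-seq reads. CHIL (AT5G05270, chromosome 5, 1563286 to 1565324, plus strand) encodes a chalcone isomerase-like protein that aids flavonoid synthesis. Its 5' UTR had 1.87 RPM in ribo-seq (72 reads) and 1.09 RPM in mRNA-seq (73 reads), a ratio of 1.72 (1.22 to 2.41). The exons of CHIL had 29.996 RPM by ribo-seq and 20.0 RPM by mRNA-seq, a ratio of 1.502. Isoform 1 of CHIL did not meet the rule, with 1.61 RPM in ribo-seq (62 reads) and 2.15 RPM in mRNA-seq (144 reads) over a 5' UTR that has 184 bases in common with isoform 2. It was the 1 exception among the 15 annotated isoforms of the 10 genes with a 5' UTR value, 14 of which met both values.

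REV3 (AT1G67500, chromosome 1, 25287356 to 25296988, minus strand) encodes the catalytic subunit of DNA polymerase zeta, which copies past damaged bases. Its 132-base 5' UTR, in 2 exons, had 1.64 RPM in ribo-seq (63 reads) and 0.523 RPM in mRNA-seq (35 reads), a ratio of 3.14 (2.04 to 4.88). The 5748-base coding sequence had 1.85 RPM in ribo-seq (71 reads) and 16.9 RPM in mRNA-seq (1132 reads), a ratio of 0.109. Per 100 bases this was 47.7 reads in the 5' UTR and 1.24 reads in the exons in ribo-seq, and 26.5 reads in the 5' UTR and 19.7 reads in the exons in mRNA-seq. REV3 thus had nearly as many ribo-seq reads in its 5' UTR as in a coding sequence many times as long, with no upstream ATG in the reference model.

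AT5G49530, a SIN-like family gene (chromosome 5, 20100545 to 20104605, plus strand), had 1.46 RPM in ribo-seq (56 reads) and 1.11 RPM in mRNA-seq (74 reads) in its 5' UTR. The ratio of 1.32 had an interval of 0.915 to 1.89 that includes 1. Its exons had 9.18 RPM by ribo-seq and 17.9 RPM by mRNA-seq, a ratio of 0.514. MYB37 (AT5G23000, chromosome 5, 7696135 to 7698022, plus strand), also known as RAX1, is a MYB transcription factor of axillary meristem formation. Its 99-base 5' UTR had 1.01 RPM in ribo-seq (39 reads) and 0.0149 RPM in mRNA-seq (1 read), a ratio of 67.9 with an interval of 11.5 to 2751. The exons of MYB37 had 9 reads in ribo-seq and 13 reads in mRNA-seq, so the gene was barely seen outside its 5' UTR.

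**Figure D3:**
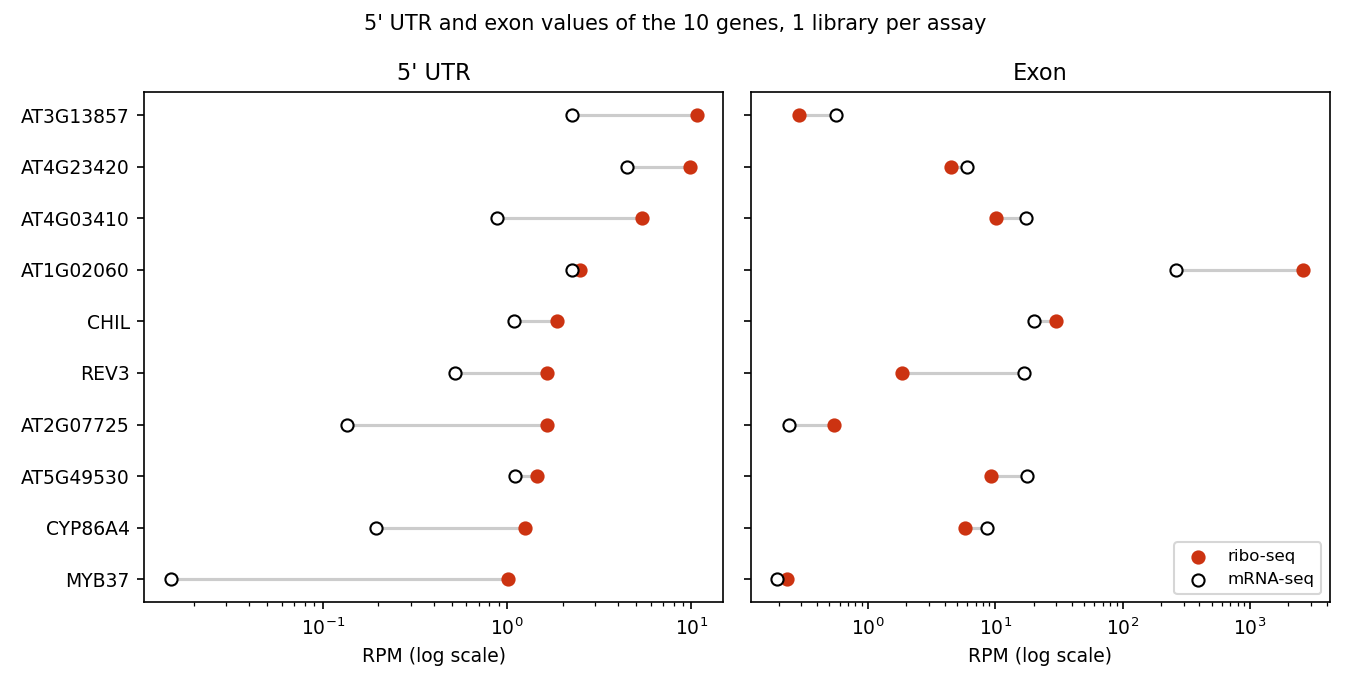
Levels of the 10 genes in ribo-seq (filled) and mRNA-seq (open) are shown in RPM on log axes for the 5' UTR (left) and the exons (right), 1 library per assay. Ribo-seq is the higher value in every 5' UTR by the rule, while in the exons it is clearly the higher value in AT1G02060, CHIL and AT2G07725 and the lower value in 6 genes.

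The members next to the limits are given to show how narrow the rule is. The lowest genes inside the limit of 1 RPM were MYB37, CYP86A4 and AT5G49530, described above. The nearest genes below it with a ratio of at least 1 were AT5G28300 (0.911 RPM by ribo-seq and 0.418 RPM by mRNA-seq), AT3G27320 (0.911 RPM by ribo-seq and 0.687 RPM by mRNA-seq) and AT1G15840 (0.885 RPM by ribo-seq and 0.164 RPM by mRNA-seq). For the ratio, the genes nearest inside were AT1G02060, AT5G49530 and CHIL. The nearest outside were AT1G61660, a bHLH gene, with a ratio of 0.995, AT5G09620 with 0.952 and AT4G10955 with 0.925. Counting error alone covers the distance of AT1G61660 from the limit, at 40 reads in ribo-seq and 70 reads in mRNA-seq.

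The exon values were then set beside those of the other genes. They were not used for the limits of the rule, although their mean chose the isoform. Of the 10 genes, 7 had a mean exon level of at least 1 RPM, and AT3G13857, AT2G07725 and MYB37 did not. On the log2(RPM + 1) scale the exon ratio of these 7 genes had a median of -0.50 and ran from -2.65 in REV3 to 3.32 in AT1G02060. The median was -1.03 in the 896 other genes with at least 1 RPM in the 5' UTR and -0.99 in all 16879 genes past the filter. The ratio of ribo-seq over mRNA-seq depends on scaling, since the annotated features held 20155235 of the ribo-seq reads and 66870044 of the mRNA-seq reads, and it is read here against the median of all genes.

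REV3 was the 1 gene of the 7 more than 2-fold below that median, where 11.8% of all genes past the filter lay. AT1G02060 and CHIL (0.56) were the 2 more than 2-fold above it, where 5.59% of all genes lay. The same 2 genes had exon ribo-seq not below mRNA-seq, as did 5.8% of all genes and 10.9% of the other genes with at least 1 RPM in the 5' UTR. The other 4 genes had ratios of -0.34 (AT4G23420), -0.73 (AT4G03410), -0.89 (AT5G49530) and -0.50 (CYP86A4), within 2-fold of the median and above it. In all, 6 of the 7 genes lay above the median of all genes and REV3 lay below it. A binomial test on the recovered reads against the median gene, with Benjamini-Hochberg adjustment over all 16879 genes, called these 6 genes higher, as it did 39.5% of all genes, and REV3 lower, as it did 39.7%. It covers counting error only and compares these libraries. With 7 genes and 1 library per assay, no difference from the other genes is claimed.

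The exon levels themselves were lower than in the other genes with this much 5' UTR signal. Their median was 5.14 RPM by ribo-seq and 12.7 RPM by mRNA-seq in the 10 genes, against 39.2 RPM by ribo-seq and 91.8 RPM by mRNA-seq in the 902 other genes. In all 15983 genes the medians were 6.35 RPM by ribo-seq and 15.7 RPM by mRNA-seq, near those of the 10 genes. The rule asks for a 5' UTR level in mRNA-seq that is no higher than that in ribo-seq. Whether this accounts for the gap to the 902 genes was not tested.

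**Figure D4:**
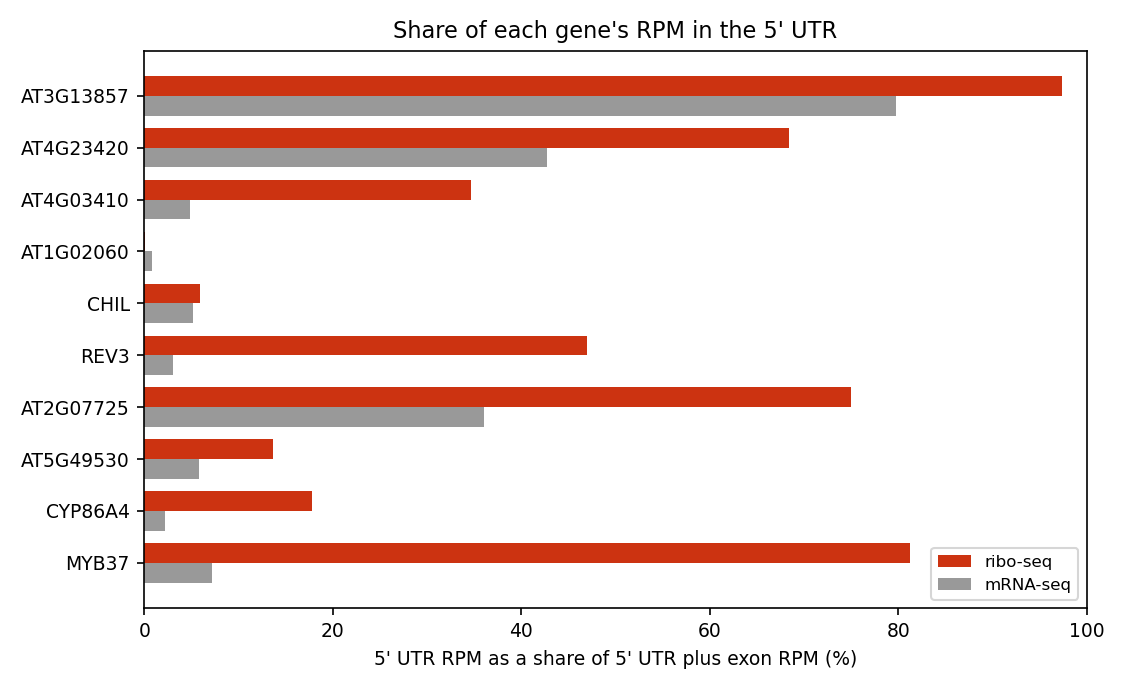
Bars show, for each of the 10 genes, the share of its 5' UTR plus exon RPM that lay in the 5' UTR (percent), in ribo-seq (red) and mRNA-seq (grey), 1 library per assay. The ribo-seq share is the larger in 9 genes and reaches 97.4% in AT3G13857, while that of AT1G02060 is 0.0942% and does not show at this scale.

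The division of each gene's RPM between 5' UTR and exons made these differences plain. In the plot of shares, the 5' UTR held 97.4% of the ribo-seq RPM and 79.8% of the mRNA-seq RPM of AT3G13857. It held 81.3% in ribo-seq and 7.14% in mRNA-seq for MYB37, and 75.0% in ribo-seq and 36.0% in mRNA-seq for AT2G07725. In AT4G23420 the shares were 68.4% in ribo-seq and 42.8% in mRNA-seq, and in REV3 they were 47.0% in ribo-seq and 3.00% in mRNA-seq. These 5 genes thus had the largest ribo-seq shares, while in MYB37 and REV3 the mRNA-seq share was low. Smaller ribo-seq shares were found in AT4G03410 (34.7% in ribo-seq and 4.80% in mRNA-seq), CYP86A4 (17.8% in ribo-seq and 2.21% in mRNA-seq), AT5G49530 (13.7% in ribo-seq and 5.82% in mRNA-seq) and CHIL (5.88% in ribo-seq and 5.18% in mRNA-seq). AT1G02060 was the 1 gene with the smaller share in ribo-seq, 0.0942% against 0.848% in mRNA-seq. Among the 902 other genes the ribo-seq share was the larger in 204 (22.6%), and the median shares were 4.43% in ribo-seq and 9.80% in mRNA-seq. Since the 5' UTR values chose the genes, these shares are a description.

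Reads per base restate these shares with length taken into account. They use the 5' UTR values that chose the genes, so they too are a description. The 5' UTR had more ribo-seq reads per base than the exons in 6 of the 10 genes and in 76 of 887 other genes (8.57%). In mRNA-seq this held for 4 of the 10 genes and for 2.14% of the others. AT3G13857, AT4G23420, REV3 and AT2G07725 were denser in the 5' UTR in both assays, and AT5G49530 and MYB37 in ribo-seq alone. The ribo-seq density of the 5' UTR was 75.5 times that of the exons in AT3G13857, 43.3 times in MYB37 (on 39 and 9 reads), 38.6 times in REV3 and 19.0 times in AT2G07725, against a median of 0.170 times in the other genes.

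The 3' UTR was not used by the rule. A 3' UTR value was listed for the chosen isoform of 8 genes, all but AT1G02060 and REV3. All 8 were at 0 reads in ribo-seq, which allows up to 0.0780 RPM each, with 485 mRNA-seq reads in sum. The 3' UTR was at 0 reads in 40.0% of the other genes with at least 1 RPM in the 5' UTR and in 71.7% of all genes with a 5' UTR value. The median 3' UTR level in mRNA-seq was 0.157 RPM in the 8 genes and 14.2 RPM in the other genes with at least 1 RPM, so the 3' UTRs of the chosen genes had little depth in which to detect ribo-seq reads.

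Upstream start codons were next counted in the reference models. An ATG lay in the 5' UTR of 6 of the 10 genes (60%, Wilson 95% interval 31.3 to 83.2), against 76.7% of 887 other genes with at least 1 RPM and 63.0% of 15881 genes. A complete uORF, with a stop codon before the end of the 5' UTR, was present in 5 of the 10 genes, in 75.9% of the other genes and in 59.2% of all genes. The difference was not detectable with 10 genes. Per 100 bases, upstream ATGs numbered 0.894 in the 10 genes, 0.885 in the others and 0.811 in all genes.

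AT4G03410 had the most upstream ATGs, 8, each opening a complete uORF of up to 44 codons. CYP86A4 had 7 uORFs of up to 9 codons, AT4G23420 had 5 of up to 30 codons, AT2G07725 had 2 of up to 21 codons and CHIL had 1 of 11 codons. AT3G13857 had 1 upstream ATG, whose frame runs into the main coding sequence. REV3, AT5G49530, MYB37 and AT1G02060 had none. Of CHIL, REV3, AT5G49530 and MYB37, CHIL alone had an upstream ATG. CYP86A4 and AT1G02060, set apart by position on chromosome 1, likewise had no overlap in the 5' UTR. Of these, CYP86A4 has the 7 uORFs given above.

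The 5' UTRs of the 10 genes had a median of 160 bases and ran from 64 to 739 bases. The median was 291 bases in the other genes with at least 1 RPM and 199 bases in all genes. With 10 genes of so wide a range, no difference in length is claimed. The median GC content was 40.8% in the 10 genes, 38.1% in the others and 37.1% in all genes. Coding bases of another isoform lay in the 5' UTR of 2 of the 10 genes, AT4G23420 (73 bases) and CHIL (1 base), and in 2.14% of the others. Coding bases of another gene lay in 0 of the 10 and in 1.47% of the others. No match to an rRNA gene was found in any of the 10 5' UTRs.

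Genes with well-studied uORFs were compared as a list of 26 loci, all of which had a 5' UTR value. None of them met the rule, although 14 had at least 1 RPM in ribo-seq. Their 5' UTR ratio on the log2(RPM + 0.5) scale had a median of -1.43 and ran from -2.50 to -0.27, and 7 of the 26 lay above the median of all genes (-0.99). The added 0.5 shrinks this ratio where reads are few. PMEAMT2, the highest, had 2 ribo-seq reads and 11 mRNA-seq reads, and NIP5;1 (-0.31) had 0 ribo-seq reads. The median 5' UTR ribo-seq level of all genes was only 0.0520 RPM. In the 14 loci with at least 1 RPM the median ratio was -1.81, against -2.07 in the 902 genes that include them. SAMDC1, an S-adenosylmethionine decarboxylase of polyamine synthesis, had the highest ribo-seq level, with 183.3 RPM by ribo-seq and 390.7 RPM by mRNA-seq. Its 5' UTR level was above that of each of the 10 genes. Its ratio of 0.469 was below all of theirs, which the rule fixes for each of the 902 genes.

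SAMDC2, a second gene of this enzyme, had 6.37 RPM by ribo-seq and 10.006 RPM by mRNA-seq, a ratio of 0.637. It was the 1 gene of the 14 with a ratio of at least 0.5, which 47 of the 902 other genes (5.21%) reached. VTC2, an enzyme of ascorbate synthesis, had 11.3 RPM by ribo-seq and 54.5 RPM by mRNA-seq, a ratio of 0.208. The sucrose-responsive bZIP2 and bZIP11 had ratios of 0.360 and 0.198, and SAC51, a bHLH factor of the thermospermine response, had 0.191. Of the remaining genes at this level, bZIP1, bZIP53, SAMDC3, SACL1, SACL3, SKU5, HB1 and TPPG had ratios from 0.162 (SACL1) to 0.342 (SKU5).

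The other 12 loci were below 1 RPM in ribo-seq. They were bZIP44, XPL1, PMEAMT2, PMEAMT3, SACL2, TBF1, PHO1, NIP5;1, MHX, ETT, MP and TPPF, and their highest 5' UTR level was 0.598 RPM, in bZIP44. NIP5;1, a boric acid channel, was at 0 ribo-seq reads with 8 reads in mRNA-seq. A further 2 loci were added because the reference gives them a name of a conserved peptide uORF. CPUORF7 (0.806 RPM by ribo-seq and 4.53 RPM by mRNA-seq) and CPUORF47 (0.0260 RPM by ribo-seq and 0.553 RPM by mRNA-seq) did not meet the rule either. They were picked by name and are not a full list of conserved uORFs.

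The exon ratios of the uORF genes are given beside those of the chosen genes. For the 24 loci of the list with a mean exon level of at least 1 RPM the median exon ratio was -1.99, with 12 loci more than 2-fold below the median of all genes. VTC2 (-4.02), SACL1 (-4.19) and SAC51 (-3.74) were the lowest. PMEAMT3 (0.24), a methyltransferase of phosphocholine synthesis whose reference 5' UTR holds no upstream ATG, was the 1 locus more than 2-fold above it. Of the 7 chosen genes past this filter, 1 was more than 2-fold below the median and 2 were more than 2-fold above it. Among all genes past the filter, 11.8% lay more than 2-fold below the median and 5.59% more than 2-fold above it. Both lists were chosen with results of these libraries known, and the difference was not tested.

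By the words of their reference descriptions the 10 genes fell into no common class. There was 1 gene each among transcription factors (MYB37; 6.0% of all 15983 genes), ribosomal proteins (AT2G07725; 2.17%), pentatricopeptide or tetratricopeptide repeat proteins (AT1G02060; 1.495%) and proteins of no known function (AT3G13857; 6.76%). None was a kinase or phosphatase (6.66% of all genes), a transporter or channel (2.15%), a ubiquitin, F-box or RING protein (3.57%) or a photosystem protein (0.463%). The genes lay on all 5 chromosomes, with 3, 1, 1, 2 and 3 of them on chromosomes 1 to 5.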

How the data were processed

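The authors aligned MBP ribo-seq and MBP mRNA-seq reads to TAIR10 with TopHat2 (2.0 in the submitters' processing notes) and used bedtools 2.23.0 to count reads over each feature at an overlap of at least 80%. For mRNA-seq in general the methods drop reads placed at several positions. For these libraries the methods give TopHat defaults, and whether that step was applied to them is not given in the sources used here, nor is the use of strand. The deposited values are RPM per isoform for the 5' UTR, exons and 3' UTR. A read counts for every isoform, so the mRNA-seq exon column sums to more than 1000000 and the deposited column was treated as a signal. The deposited Total column, a signal summed over both libraries, was not used. Transcripts at 0 in both libraries are not listed. Of all values above 0, 99.9909% in ribo-seq and 99.9778% in mRNA-seq were whole multiples of 1 read, which gave read counts and exact intervals of ratios. The tolerance was 0.02 reads plus a small allowance that grew with the count, because the deposited values are rounded. PCR reads are not independent molecules.

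Coordinates, 5' UTRs and symbols came from the RefSeq TAIR10.1 annotation, whose models may differ from the authors'. It matched 25034 of 25224 genes, 25015 by isoform number and 19 by their longest model. Organelle and rRNA matches were blastn hits of at least 24 bases and 95% identity. Ratios used log2 with pseudocounts of 1 (exons, mean of at least 1 RPM) and 0.5 (5' UTR). With 1 library per assay there was no test. As an alternative added after seeing the data, a binomial test on the recovered exon reads against the median gene, with Benjamini-Hochberg adjustment over 16879 genes, called 6672 higher and 6709 lower. Such a test compares these libraries, not conditions. Named genes were all members, the uORF list and the genes nearest the limits. A few others were chosen after their values were seen (the genes over small RNA genes, RBCS1A, CA1 and the examples in the closing observations). The members, lists and rules were chosen with earlier results of these data known. The procedure was tested on simulated data. Tools were blastn 2.17.0 and Python 3.11.15 with scipy 1.17.1, pandas 2.3.3 and numpy 2.4.6.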

Additional observations from a re-analysis of the deposited data

How the results depend on the processing

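The number of genes depended on the limits and on scaling. It was 18, 4 and 3 with a minimum of 0.5, 2 and 5 RPM in place of 10 genes at 1 RPM, 31 with the isoform of the highest mean 5' UTR value, 89 after scaling each library to its feature sum outside the left-out ids, 16 with the left-out ids kept, and 6 without UTRs over small RNA genes or organelle matches, an alternative added after seeing the data. It was 12 with isoform 1, and 8 without the first 367808 bases of chromosome 1, without UTRs over coding sequence or, also added after seeing the data, with the lower bound of the counting interval at least 1. The median exon log2 ratio (-0.50) was -0.31 without the exon filter, -0.083 at a mean of at least 10 RPM (4 genes) and -0.73 both without UTRs over coding sequence and without that stretch of chromosome 1. Rescaling turned it to 0.38, and by the same construction moved the median of all genes to -0.14. No gene was more than 2-fold below the median at 10 RPM (0, against 1). The added binomial test called 6 of 7 genes above the median gene (39.5% of all genes) where the 2-fold limit called 2 (5.59% of all genes). The median 5' UTR log2 ratio (1.20) was 1.84 with a pseudocount of 0.1, the share with an upstream ATG (60%) was 100% at 5 RPM (3 genes), and 1 gene of the uORF list, SAMDC2, passed at a ratio of at least 0.5. The other alternatives kept these values within their limits. No paired analysis was possible because there was 1 library per assay, and for that reason no library could be left out. Depth limits the genes with few mRNA-seq reads most, MYB37 (1 read) and AT2G07725 (9 reads).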

Other observations

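After each library was rescaled to the sum of its annotated features without the left-out ids of chromosome 1 (496494 RPM by ribo-seq and 988196 RPM by mRNA-seq, a factor of 1.99 on the ratio), all 10 genes met the rule and 79 more did. Of the genes gained, 67 of the 78 with a reference 5' UTR (85.9%) had an upstream ATG, against 76.7% of the other genes with at least 1 RPM and 63.0% of all genes as deposited, and 1 lay over a small RNA gene. This difference was not tested. Their median exon log2 ratio as deposited was -1.49. Among them, chosen after their values were seen, the blue-light receptor CRY1 had 3.67 RPM by ribo-seq and 5.73 RPM by mRNA-seq in its 5' UTR. The plastid signalling gene GUN1 had 3.75 RPM by ribo-seq and 6.06 RPM by mRNA-seq, and polyubiquitin UBQ10 had 15.8 RPM by ribo-seq and 26.4 RPM by mRNA-seq. SAMDC2 (AT5G15950) was the 1 gene of the uORF list gained.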
